A study of Mus musculus with 4 samples.

Results

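The members described here are the 7069 peaks of mouse chromosome 2 in a map of chromatin recovered with the long noncoding RNA Malat1, out of 77823 peaks in the whole list. The chromosome was chosen by its measured peak count, with earlier results of these data known: no autosome held more peaks. Its high peak count and summit density are therefore part of the choice, not independent findings. Within it, members were taken by position: every peak that the deposited list places on chromosome 2 of the mm10 (GRCm38) assembly. The cells were 4T1-TGL, a mouse mammary carcinoma line of BALB/c origin, labelled wild type (WT) and grown in DMEM/F12 medium. Of the 4 libraries, each the sole one of its group, 1 was a pull-down with a Malat1 probe pool called Even, 1 with a pool called Odd, 1 with LacZ probes, and 1 was an input, titled as that of Even. ChIRP fishes a nuclear RNA out of sonicated nuclei with biotin-labelled antisense oligonucleotides and sequences the DNA that comes with it. The deposited values are those of 1 merged treatment against 1 input, and the sources used here do not say which pull-downs were merged. No peak therefore has a replicate, the LacZ control cannot be set beside it, and no p-value is given for any difference.

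Malat1 is an abundant, nuclear-retained RNA that concentrates in nuclear speckles, the bodies that store splicing factors, and it has been mapped at many transcribed genes in mouse and human cells. In mouse mammary tumours it has been studied for its part in metastasis. Chromosome 2 of the mouse is a long, gene-rich autosome. It carries the Hoxd cluster of limb and axis patterning genes, large clusters of olfactory receptor genes, and an imprinted domain at its distal end around Gnas.

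Each peak has a few values given by the authors' peak caller. Its tag count is the number of treatment reads in the interval, its summit is the base with the highest pileup, and its height is that pileup. Its fold enrichment is the height over the local input, after the input was scaled down to the treatment. The implied input is the height divided by the fold, in units of the genome-wide mean background, and gives the background set against the peak. Its values pile up at 1: on chromosome X, 91.8% of peaks lay within 0.1% of the genome mean. A value of 1.00 can therefore stand for a local input at or below that mean. The treatment held 851227 tags after duplicate removal and the input 50030325, 58.8 times as many. At the genome mean input, a height of only 3 tags already gives a fold of 179.5, so fold sizes on this scale rest on few tags.

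No genome was at hand to read the peaks themselves, so the sequences shown are those of promoters that hold a summit, a small share of all peaks. RefSeq promoter sequences (GRCm38.p6; 250 bases before to 50 after a start site) were at hand for 2843 windows of chromosome 2, and 49 of them (1.72%, 95% Wilson interval 1.31 to 2.27) held a summit, from 44 genes. Over chromosomes 1 to 19 and X the share was 1.31%. The 4 genes whose promoter held the summits of highest fold are shown 5′ to 3′ on the gene's own strand, and the capitals mark the 21 bases centred on the summit.
Ctcflos, chr2:173124499-173124798, plus strand: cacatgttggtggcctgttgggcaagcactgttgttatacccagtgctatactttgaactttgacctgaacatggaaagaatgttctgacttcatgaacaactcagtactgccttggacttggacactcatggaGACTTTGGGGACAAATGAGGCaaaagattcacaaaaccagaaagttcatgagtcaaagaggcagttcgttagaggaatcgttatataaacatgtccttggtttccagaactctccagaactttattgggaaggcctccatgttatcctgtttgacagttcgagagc
Zc3h6, chr2:128967152-128967451, plus strand: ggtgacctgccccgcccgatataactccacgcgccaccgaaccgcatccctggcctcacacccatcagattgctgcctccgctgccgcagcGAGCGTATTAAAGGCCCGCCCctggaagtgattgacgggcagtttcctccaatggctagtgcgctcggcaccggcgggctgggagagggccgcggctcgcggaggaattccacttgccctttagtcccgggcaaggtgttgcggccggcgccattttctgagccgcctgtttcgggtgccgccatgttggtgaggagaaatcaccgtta
Sdc4, chr2:164443139-164443438, minus strand: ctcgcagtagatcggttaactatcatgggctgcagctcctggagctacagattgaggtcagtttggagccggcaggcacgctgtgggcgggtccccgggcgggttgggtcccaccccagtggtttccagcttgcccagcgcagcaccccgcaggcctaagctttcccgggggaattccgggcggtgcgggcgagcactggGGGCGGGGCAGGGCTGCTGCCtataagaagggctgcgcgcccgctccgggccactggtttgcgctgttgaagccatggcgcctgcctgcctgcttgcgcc
Gm39851, chr2:73938899-73939198, plus strand: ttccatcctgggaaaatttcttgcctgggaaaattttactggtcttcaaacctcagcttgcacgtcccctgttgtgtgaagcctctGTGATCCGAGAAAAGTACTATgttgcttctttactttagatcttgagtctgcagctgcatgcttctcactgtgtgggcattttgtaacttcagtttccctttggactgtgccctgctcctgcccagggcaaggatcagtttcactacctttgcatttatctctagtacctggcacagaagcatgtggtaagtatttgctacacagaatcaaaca

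The promoter of Ctcflos, a lncRNA whose name places it opposite Ctcfl, held the strongest of these summits, with 46 tags, a height of 16 and a fold of 519, at 106 bases before the start site. It was the sole promoter summit of the chromosome in a peak of at least 30 tags. Zc3h6, which encodes a CCCH-type zinc finger protein, had 13 tags and a fold of 332. Sdc4 encodes syndecan 4, a heparan sulfate proteoglycan of focal adhesions, and its summit lay 40 bases before the start in a peak of 19 tags and a fold of 299. The lncRNA Gm39851 had 12 tags and a fold of 231. Most promoter summits were far weaker: 23 of the 49 windows held a peak of 3 tags, the fewest any peak has, and the median fold was 120 (119.69 as deposited).

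The letters under these summits were mixed. The GC box GGGCGG, read on either strand, lay within the capitals of Zc3h6 and Sdc4. In all, 13 of the 49 windows with a summit held it (26.5%), against 35.9% of all 32585 windows. TATAAA stood in 5 (10.2%, against 13.7% of all windows), CACACACA in 4 (8.16%, against 4.11%) and GAGAGAGA in 2 (4.08%, against 3.96%). Of the 426 windows with a summit on all chromosomes, 3.05% held CACACACA, so its higher share here was not general. Each motif was searched on both strands, and matches of different motifs may share bases. The median GC content was 53% with a summit and 52.7% in the 2794 windows of chromosome 2 without one, and the median number of CG dinucleotides was 4 and 7. On all chromosomes that median was 6 in the windows with a summit and 7 in all windows. A motif match is a description of letters, and 49 windows give these shares wide counting error.

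Chromosome 2 was denser in summits than most autosomes, and its peaks had more local input. Since the chromosome was chosen by its peak count, its density and rank are a description only. It held 39.5 summits per Mb of its 179 Mb span (exact Poisson 95% interval 38.6 to 40.4, counting error only), the 4th highest of the 19 autosomes, against 30.9 over the other autosomes, a ratio of 1.28. With only the peaks of implied input under 1.5 the direction turned, to 15.2 per Mb against 18.8, a ratio of 0.805 and the 17th rank. That choice by construction removes whole stretches of high input but keeps their span, so the turn does not show why the counts differ. With all peaks, chromosome 2 carried 9.18% of autosomal summits (Wilson interval 8.98 to 9.38) on 7.33% of the autosomal span. The median implied input of its peaks was 1.6 times the genome mean (interval from order statistics 1.58 to 1.61), the 3rd highest, against 1.39 on the other autosomes. Only 1.61% of its peaks lay within 0.1% of the genome mean input, where lower inputs may also be counted, against 9.31% elsewhere. Chromosomes 9 and 15 had both more summits per Mb (45.2 and 61.3) and more input (1.73 and 2.37), and chromosome 11 had more summits (42.4) at an input of 1.4.

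**Figure D1:**
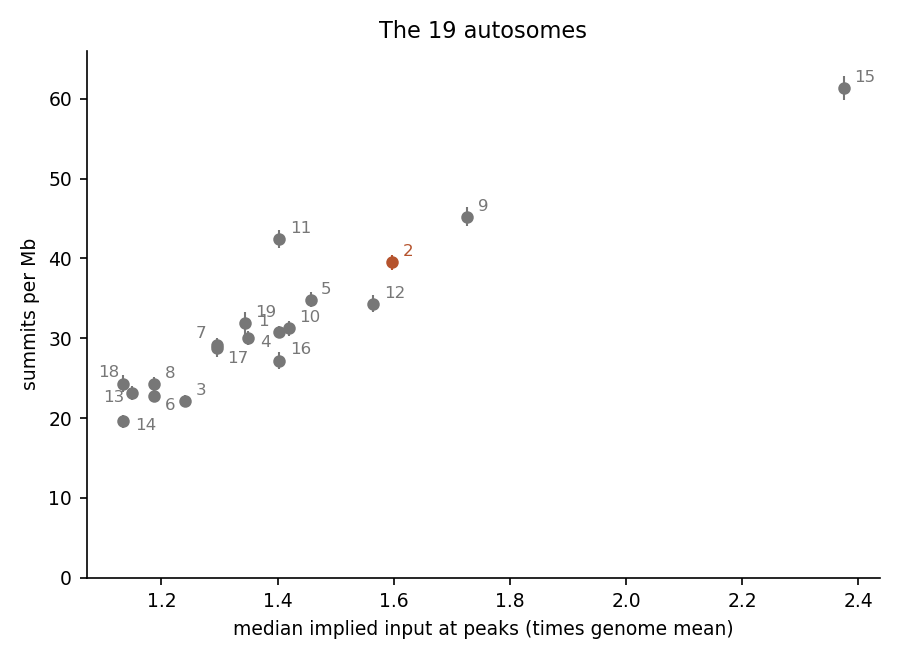
Summits per Mb (vertical axis, bars are exact Poisson 95% intervals) against the median implied input at peaks (horizontal axis, times the genome mean) for the 19 autosomes, each labelled by its number. Chromosome 2, in red, lies at 39.5 summits per Mb and an input of 1.6, below chromosomes 9 and 15 on both axes.

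The peaks themselves were of ordinary size. The median peak of chromosome 2 held 5 tags over 135 bp with a height of 3, and these medians were 5, 135 bp and 3 on the other autosomes. Its median fold was 123 (interval 121 to 124), against 133 elsewhere, while the heights were level and the input higher. From the 5th to the 95th percentile, tags ran from 3 to 25, lengths from 77 to 335 bp and folds from 61.6 to 370. In all, the peaks held 56938 tags, 318 per Mb against 264 elsewhere, and 48.1 tags per covered kb against 49.4.

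The share of strong peaks lay within the range of the other autosomes. At least 30 tags were held by 265 peaks (3.75%, Wilson interval 3.33 to 4.22), against 4.06% on the other autosomes and 4.01% over chromosomes 1 to 19 and X. Chromosome 11 alone had 14.2%, and on the other autosomes without 9, 11 and 15 the share was 3.00%, so that chromosome 2 ranked 4th of 19. At the low end, 2641 peaks (37.4%) held 3 tags. The 265 strong peaks, with a median length of 386 bp and a median height of 12, carried 21.2% of the tags in chromosome 2 peaks. Of the strong peaks, 35.8% lay beyond 150 Mb, as did 27.2% of the peaks of 3 tags. At least 50 tags were held by 61 peaks of chromosome 2 (0.863%), against 1.44% elsewhere. Of the 1010 such peaks elsewhere, 397 lay on chromosome 11 (7.67% of its peaks). The pooled 1.44% is thus raised by that chromosome and does not show a shortfall against the remaining autosomes.

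**Figure D2:**
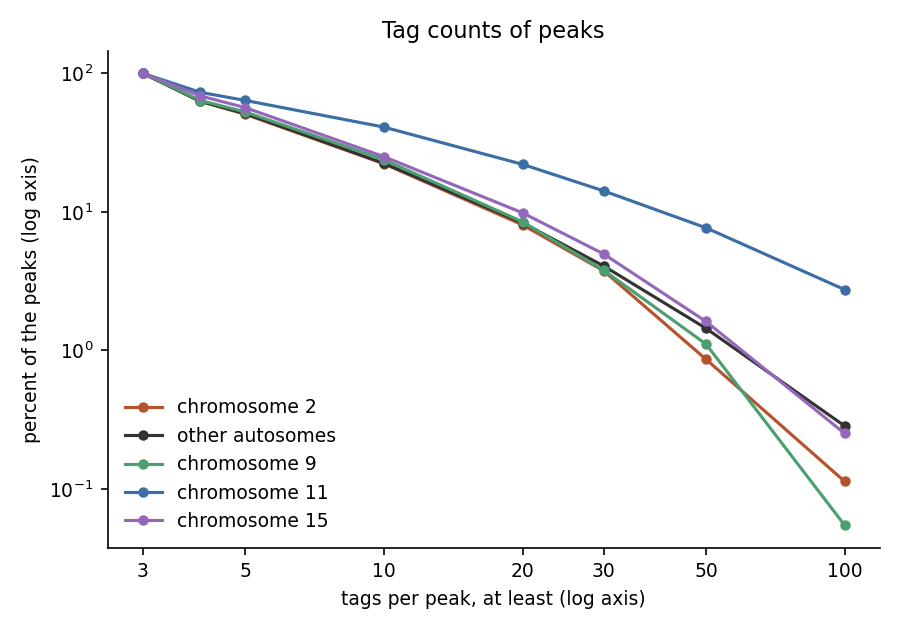
Percent of peaks (vertical log axis) with at least the number of tags on the horizontal log axis, for chromosome 2, the other autosomes pooled, and chromosomes 9, 11 and 15. The line of chromosome 2 runs with the pooled line up to 30 tags (3.75% against 4.06%) and lies below it at 50 tags. Chromosome 11, which is part of the pooled line and raises it, stands above all others.

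Along the chromosome the summits were unevenly spread. In 179 windows of 1 Mb the count ran from 0 to 95, with a median of 36. The densest 20% of windows held 36.7% of the summits. By bands of 10 Mb, the density was 39.4 per Mb in the first, 56.6 from 20 to 30 Mb and 44.9 from 30 to 40 Mb. It was 20.8 from 40 to 50 Mb and 19.8 from 80 to 90 Mb, between 27.9 and 39.1 in the other bands up to 150 Mb, and 68.5, 75.1 and 48.7 in the next 3. The last 2 windows held 83.0 per Mb.

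The distal end stood out, although the 5 windows from 24 to 29 Mb were as dense, at 70.2 summits per Mb. From 150 Mb on, 32 windows held 2089 summits, 65.3 per Mb and 29.6% of all on 17.9% of the windows, against 33.9 per Mb before, a ratio of 1.93. The boundary at 150 Mb was set after the profile had been seen, so the ratio is a description. With only the peaks of implied input under 1.5, the direction turned, to 5.09 summits per Mb beyond 150 Mb and 17.4 before, a ratio of 0.294. That choice by construction removes most distal peaks but keeps the distal span, so the turn largely follows from the choice. The median implied input of the windows was 1.84 beyond 150 Mb and 1.44 before it, and a window held a median of 13 and 6 protein-coding genes. Median height was 3 in both parts, and median fold was 108 beyond and 131 before. Of the 10 densest windows, 9 lay beyond 150 Mb.

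**Figure D3:**
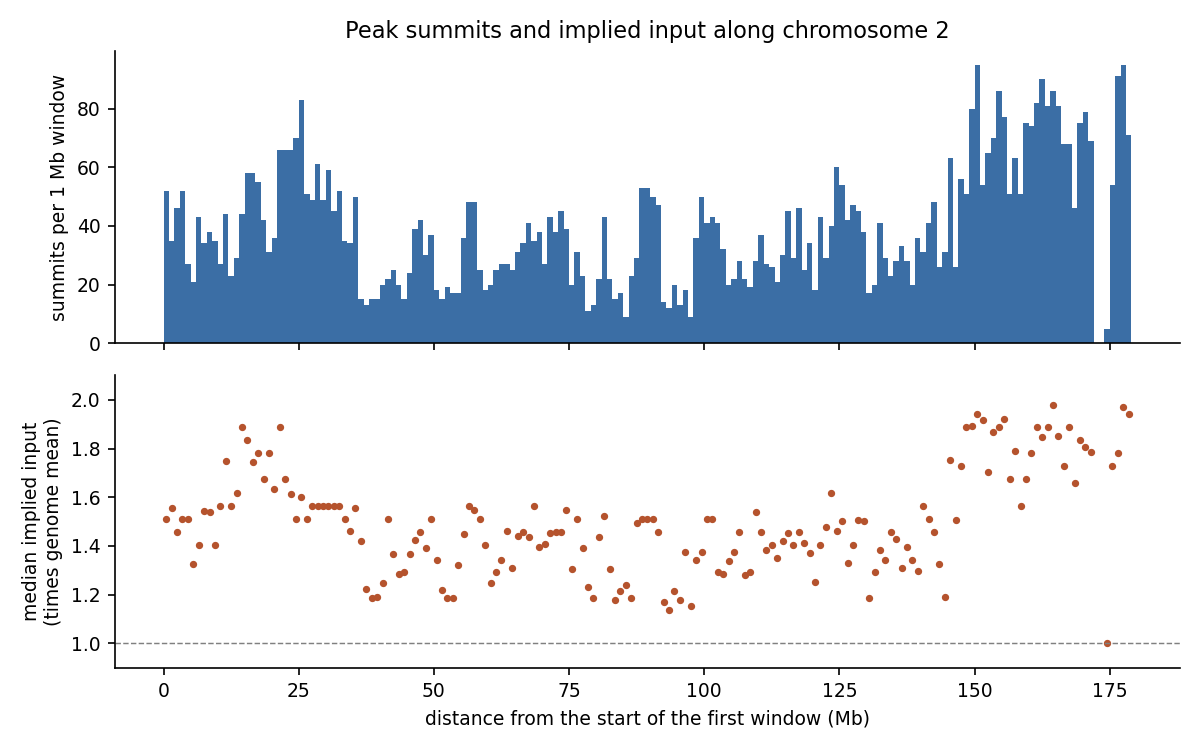
Upper panel: peak summits per 1 Mb window along chromosome 2; lower panel: median implied input of the peaks in each window (times the genome mean, dashed line at 1). The horizontal axis is the distance in Mb from the start of the first window. Counts and input are both high over the distal end, where windows reach 95 summits, apart from an empty stretch of 2 windows.

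Most of the 10 densest windows are given with their leading gene. Those at 153 to 154 Mb and 180 to 181 Mb held 95 summits each, with 16 of them in Nol4l and 9 in Osbpl2, a lipid-binding oxysterol protein gene. The window at 179 to 180 Mb held 91, and 52 of these lay in Cdh4, which encodes R-cadherin. It held only 3 protein-coding genes, whereas the window at 180 to 181 Mb held 27. The others beyond 150 Mb had between 81 and 90 summits. The gene with the most summits was Cdh22 (15), a cadherin gene, at 165 Mb and Ctnnbl1 (14) at 157 Mb. Prex1 (15), which encodes a Rac exchange factor, led at 166 Mb, Nfatc2 (12), a calcium-dependent transcription factor gene, at 168 Mb, and Pltp (4), a phospholipid transfer protein gene, at 164 Mb, where 52 protein-coding genes share the window. The sole one of the 10 elsewhere was at 28 to 29 Mb, with 83 summits at an input of 1.6, led by the adenylate kinase gene Ak8 (14). It belongs to a dense proximal stretch, since each of the 5 windows from 24 to 29 Mb held 66 to 83 summits.

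Sparse windows were of several kinds. At 88 to 89 Mb 9 summits lay among 40 protein-coding genes, all 40 of them olfactory receptors. The windows that start at 81 Mb and 100 Mb, with 11 and 9 summits, held no annotated protein-coding gene. At 96 to 97 Mb 12 summits fell mostly in Lrrc4c (7), a synaptic adhesion gene. At 40 to 41 Mb 2 of 13 lay in Lrp1b, a giant gene of the LDL receptor family that covers 40.5% of the window, and at 82 to 83 Mb 3 of 13 lay in Zfp804a, a zinc finger gene. From 39 to 49 Mb the density was 18.4 per Mb at a median input of 1.29. The window at 98 to 99 Mb held 13 summits and no protein-coding gene.

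The emptiest stretch was inside the dense end. No summit lay between 174930711 and 177320873, a gap of 2.39 Mb, so that 2 whole windows held 0 and the next, from 177 Mb, held 5. RefSeq lists 69 genes in these 3 windows, 30 of them protein-coding, of which 21 have Gm names and 8 have Zfp names. The 5 peaks in the last of these windows had a median input of 1.00 and a median fold of 179.5. The sources used here do not say how reads matching several copies of a sequence were handled, so counts in such tandem families are uncertain.

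Window counts followed the implied input more closely than gene number. Over the 177 windows with a summit, Spearman's rho between summits and median input was 0.83 (Pearson's r 0.85), as a description without a p: the points share 1 treatment, 1 input and neighbouring windows. With the number of protein-coding genes rho was 0.51, and with the median height it was -0.09. Within the 147 windows before 150 Mb rho with input was 0.74, and within the 30 beyond it 0.62. The part of the input in the counts was not tested.

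Set beside windows of like input on the other autosomes, chromosome 2 was not uniformly dense. At an input of 1 to 1.2, its 14 windows held a median of 15 summits, against 19 in 893 windows elsewhere. At 1.2 to 1.4 the medians were 22 (45 windows) and 29.5 (696 windows), and at 1.4 to 1.6 they were 39 (76 windows) and 38 (469 windows). At 1.6 to 1.8 they were 57 (22 windows) and 46 (62 windows), and at 1.8 to 2 they were 78 (20 windows) and 62 (31 windows). The ranges of window counts overlapped in each of these classes. Chromosome 2 also had 11.3% of its windows at 1.8 to 2, against 1.39% elsewhere, and 7.91% under 1.2, against 40.2%. On chromosome 2 itself, the 28 distal windows with an input of at least 1.6 held 72.6 summits per Mb, and the 14 windows before 150 Mb with such an input held 49.9, with medians of 14 and 7 protein-coding genes.

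**Figure D4:**
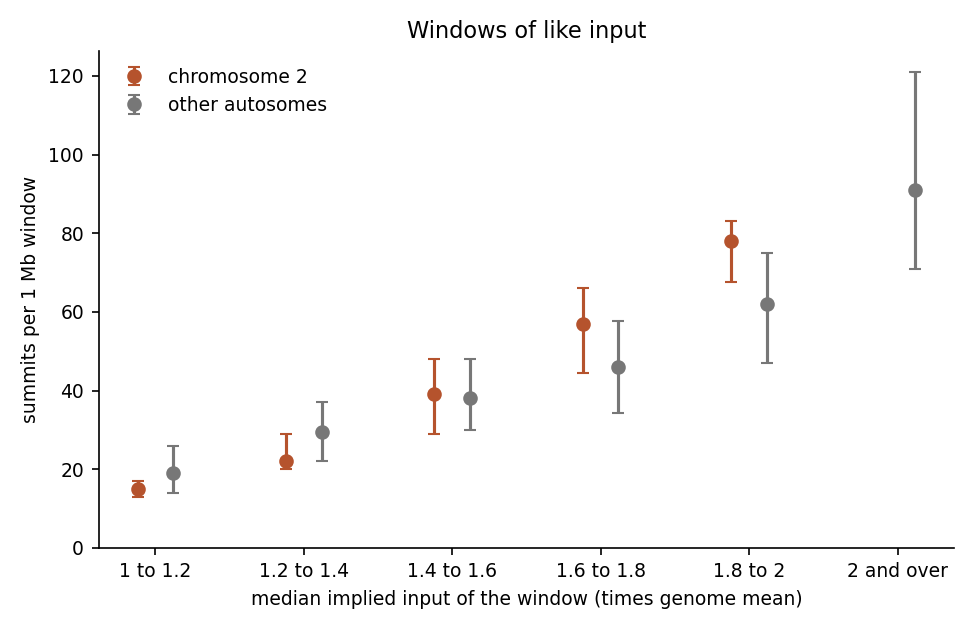
Summits per 1 Mb window (vertical axis) in classes of the window's median implied input (horizontal axis, times the genome mean) on chromosome 2 (red) and on the other autosomes (grey). Points are medians and bars run from the 25th to the 75th percentile of windows; chromosome 2 has no window at 2 and over, lies below the others under 1.4 and above them from 1.6.

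The peaks with the most tags were of 2 kinds. The leading pair lay together outside genes: 98666194 to 98667380, with 398 tags, and 98662194 to 98662976, with 245. The nearest annotated gene, the lncRNA Gm33780, was 35677 bp from the first. Their folds were only 20.2 and 18.3, and their implied inputs reached 65.3 and 71.8. Both had a height of 22, the highest in the whole list, so height, and with it fold, may be capped for the strongest peaks. A pair of peaks between them, with 71 and 37 tags, had inputs of 48.0 and 35.6. These 4 peaks held most of the 849 tags of their window, which had the most tags per summit of any window of chromosome 2. Of the 10 peaks on the chromosome with an input of at least 5, the other 6 lay near its ends or alone: 1 at 3050150, 1 at 22744822 and 4 between 181917394 and 181931003.

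The other 8 of the 10 had folds between 567 and 1013 at inputs from 1.24 to 2.32. Col9a3, which encodes a chain of cartilage collagen IX, held the first (180611146 to 180611877, 141 tags, fold 567) at the highest input of these 8. Inside Ctnnbl1, a gene for a spliceosome-associated armadillo-repeat protein, lay a peak of 119 tags and fold 703 (157871673 to 157872155). Inside Ldlrad3, an LDL receptor domain gene, a peak of 110 tags had a fold of 1013 (102143548 to 102144005) at an input of 1.24. Cers6, a ceramide synthase gene of sphingolipid metabolism, held 108 tags with a fold of 924 (68888747 to 68889303). Stx16, a syntaxin gene of vesicle traffic, held 85 with a fold of 641. Of the remaining 3, those of 103 and 86 tags lay outside genes, 33536 bp from Syndig1 and 2181 bp from the lncRNA Gm11468, and that of 100 tags lay in the lncRNA Gm39880. So 5 of the 10 lay in protein-coding genes, beside 47.2% of all chromosome 2 summits.

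By fold the order was another. The highest was 1077, 22nd of the whole list, at 96633175 to 96633554 inside Lrrc4c, with 64 tags and an input of 1.00. It lay in one of the sparsest windows of the chromosome. Lrrc4c held 23 summits over 1314 kb, 1.75 per 100 kb. Of the 10 peaks of highest fold, 7 lay outside annotated genes, beside 37.1% of all chromosome 2 summits, and the implied inputs of the 10 ran from 1.00 to 1.35.

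Summits of chromosome 2 lay somewhat more in genes than those of the other autosomes pooled. Of the 7069, 596 (8.43%, Wilson interval 7.81 to 9.10) had a gene end within 1 kb, compared with 7.89% elsewhere. A further 3340 (47.2%, 46.1 to 48.4) fell inside protein-coding genes, where the other autosomes had 44.5%, and 507 (7.17%) inside other genes, where they had 6.88%. Outside genes lay 2626 (37.1%, 36.0 to 38.3), against 40.8%. Among single autosomes that share ran from 31.9% on chromosome 11 to 51.0% on chromosome 3, and chromosome 7 also had 37.1%. Chromosome 2 also has more protein-coding genes per Mb, 9.96 against 8.35. Such genes covered a median of 49.1% of its 1 Mb windows, and the part of gene cover in these shares was not tested. By bands of 10 Mb, the share outside genes ran from 26.5% at 30 to 40 Mb to 64.1% at 80 to 90 Mb. Median fold was 119 near ends, 121 in protein-coding genes and 128 outside, at inputs of 1.61, 1.62 and 1.57. Neighbouring summits were a median of 13730 bp apart, against 17200 bp (17199.5) elsewhere.

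Near gene ends, 463 of the 2733 protein-coding and lncRNA genes of the chromosome had a summit. The like share of genes elsewhere is not given here, so this count cannot be compared. Of summits, 8.43% lay near ends, against 7.89% on the other autosomes. The peaks of the 15 highest genes by fold held between 13 and 55 tags. The highest fold was at Gm14403, a lncRNA at 177498226 to 177512311, beside the empty stretch, with 34 tags, a fold of 658 and an input of 1.00. Gm13817, also a lncRNA, followed with 581 and 41 tags. Procr, which encodes the endothelial protein C receptor and marks multipotent mammary stem cells in mice, had a peak at 155751348 to 155751780, inside the gene 375 bp from an end, with 46 tags and a fold of 561. Dpp7, a lysosomal dipeptidyl peptidase gene, and the lncRNA Gm46732 share a peak of 55 tags and fold 554, which lies inside Dpp7. Lcn5 and Lcn8, epididymal lipocalin genes, share another of 33 tags and fold 465. Plagl2, a zinc finger transcription factor gene, had 51 tags at a fold of 404 and an input of 2.22. Ctcflos (519), Gm39936 (497), Ypel4 (456), AV039307 (446), Ier5l (425), C1qtnf4 (424), a gene for a secreted C1q-related protein, and LOC108168800 (397) completed the 15 highest.

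The genes with the most summits were long. Ptprt, a receptor tyrosine phosphatase gene, held 59 over 1139 kb, which is 5.18 per 100 kb. Cdh4 held 52 over 457 kb, 11.4 per 100 kb, and Phactr3, a phosphatase and actin regulator gene, 24 over 220 kb, 10.9 per 100 kb. Both lie at the distal end. Etl4 held 45 (5.0 per 100 kb), and Macrod2, a gene for an ADP-ribose hydrolase, also 45, at 2.25 per 100 kb over 1998 kb. Celf2, an RNA-binding splicing regulator gene, held 33 (3.85 per 100 kb). Frmd4a, Lrp1b and Tshz2 held 26 each, at 4.36, 1.26 and 5.91 per 100 kb, and Plcb1, a phospholipase C gene, 25 at 3.63. Lrp1b thus had as many summits as Tshz2 over a body of 2058 kb against 440 kb.

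Of the 1782 protein-coding genes of chromosome 2, 1172 (65.8%, Wilson interval 63.5 to 67.9) carried a summit, counted in the gene or up to 5 kb from it, beside 60.8% of the protein-coding genes of chromosomes 1 to 19 and X. On the other autosomes the share was 62.5%. Of lncRNA genes it was 61.9% (58.8 to 65.0), 589 of 951, beside 51.6% of all lncRNA genes. By length, protein-coding genes of up to 10 kb had one in 39.2% on chromosome 2 and 37.6% elsewhere, and those of 10 to 50 kb in 75.1% and 66.9%. For 50 to 200 kb the shares were 95% and 91.2%, and for over 200 kb 98.6% (70 of 71) and 99.4%. The class of up to 10 kb on chromosome 2, 697 genes, takes in most of its 286 olfactory receptor genes, of which 17.1% had a summit. So 39.2% and 37.6% do not compare like genes, and the shares of short genes without receptors are not given here. Over all lengths, without olfactory receptors, chromosome 2 had 75.1% and the others 64.3%.

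Olfactory receptor genes, which encode the odorant receptors of nasal neurons, were the largest list and had the lowest share of the 17 lists. Of 286, 49 (17.1%, 13.2 to 21.9) carried a summit by the same count. They are short, with a median length of 0.945 kb. The 10 windows with at least 5 of them held 23.1 summits per Mb at a median input of 1.30, and those from 85 to 90 Mb held 17.2. The highest fold belonged to a peak of 28 tags that lies between Olfr1153 and Olfr1154 (718, input 1.00), followed by Olfr1218 (419, 7 tags) and Olfr1271 (389, 38 tags).

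Genes of tumour cell identity and adhesion were next. Of 20 genes of the epithelial-mesenchymal transition and of stem cells, 14 had a summit (70%, Wilson interval 48.1 to 85.5). Beside this stand 65.8% of the protein-coding genes of the chromosome, and 75.1% without olfactory receptors, both inside the interval. These 20 genes were long, with a median of 35.6 kb where all protein-coding genes of the chromosome had 15.6 kb. Cd44, the hyaluronan receptor that marks mesenchymal-like mammary tumour cells, held 9 summits, the best with 35 tags and a fold of 601. Procr followed with 561, then Cdh4 with 404 and the ligand gene Bmp7 with 382. Named after their values were seen, Notch1 held a peak of 32 tags (fold 269) and Jag1 and, outside the gene, Snai1 peaks of 3 tags, whereas Vim, Bmi1, Id1, Bmp2, Grem1 and Sox12 held none. Of 20 integrin and matrix genes 19 had a summit (95%, 76.4 to 99.1), at a median length of 61.5 kb. Among all chromosome 2 protein-coding genes of 50 to 200 kb the share was also 95%. Fbln7, a fibulin adhesion protein gene, led with a fold of 658 and 52 tags in a peak outside the gene, followed by Col9a3, the integrin alpha V gene Itgav (532, 23 tags) and the integrin beta 6 gene Itgb6 (496, 56 tags).

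Regulators in the nucleus are set beside the same 65.8% of all protein-coding genes of the chromosome, and 75.1% without olfactory receptors. Of 27 developmental transcription factor genes 21 had a summit (77.8%). Lmx1b led with a fold of 616 and 47 tags, followed by the retinoid receptor gene Rxra (482, 48 tags), Hnf4a (470, 51 tags) and Gata3, a luminal mammary regulator (422, 28 tags). Of 20 chromatin regulator genes 18 had one (90%, median length 81.9 kb). Mllt10, a DOT1L partner gene, led with 790 and 65 tags, ahead of the nuclear receptor coactivator genes Ncoa6 (590, 29 tags) and Ncoa3 (274) and the remodeller gene Chd6 (301). Of 19 splicing and RNA-binding factor genes 14 had one (73.7%, Wilson interval 51.2 to 88.2). Celf1 held the strongest, 71 tags at a fold of 577, and Celf2 (402), Cstf3 (277), a polyadenylation factor gene, and Snrpb2 (236, outside the gene), a U2 snRNP protein gene, followed. In the Hoxd cluster 6 of 10 genes had one (60%, 31.3 to 83.2), and none a peak of 30 tags. The intervals of these last 2 lists and of the developmental factors (59.2 to 89.4) include 65.8% and 75.1%. That of the chromatin regulators (69.9 to 97.2) includes 75.1% but not 65.8%. It also includes 95%, the share of chromosome 2 protein-coding genes of 50 to 200 kb, the class of their median length. In the Hoxd cluster Evx2 had the best (148, 6 tags), and Hoxd10 and Hoxd11 share a peak of fold 115. Hoxd3 followed with 82.1 and 3 tags.

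Genes of the cell cycle, immunity, Wnt signalling and excitable membranes had shares from 75% to 89.3%, beside 65.8% of all protein-coding genes of the chromosome. Without olfactory receptors the latter share was 75.1%. The Wilson intervals of the cell cycle (62.9 to 93.0), immune (64.4 to 92.1) and Wnt lists (46.8 to 91.1) include both shares. That of the ion channel and synaptic list (72.8 to 96.3) includes 75.1% but not 65.8%. It also includes 95%, the share of chromosome 2 protein-coding genes of 50 to 200 kb. Of 23 cell cycle genes 19 had a summit (82.6%). Cdk5rap1 (339, 23 tags), the topoisomerase gene Top1 (334, 37 tags) and Pcna, the replication clamp gene (224, 11 tags), were among the highest by fold. The peak of Cdk5rap1 lies outside the gene body, inside its neighbour Bpifb1. Of 28 immune genes 23 had one (82.1%), led by Zbp1, a nucleic acid sensor gene (536, 32 tags), Nfatc2 (336), Il1b (279, 11 tags) and Il1rn, which encodes the interleukin 1 receptor antagonist (277, 40 tags), the last 2 from peaks outside the gene. Of 12 genes listed under Wnt signalling 9 had one (75%), led by Ctnnbl1, Lrp1b (506, 21 tags), Plcb4 (344) and Plcb1 (339). The list is a loose one: Ctnnbl1 and Lrp1b are described above as a spliceosome-associated and an LDL receptor family gene. Of 28 ion channel and synaptic genes 25 had one (89.3%, median length 102 kb), led by the potassium channel gene Kcnh7 (593, 12 tags, input 1.01), Macrod2 (508), Ptprt (469) and the potassium channel gene Kcnj3 (457). Macrod2 and Ptprt encode enzymes, not channels. The share also differed with gene length, as given above, and its part in these shares was not tested. None of these lists was tested.

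**Figure D5:**
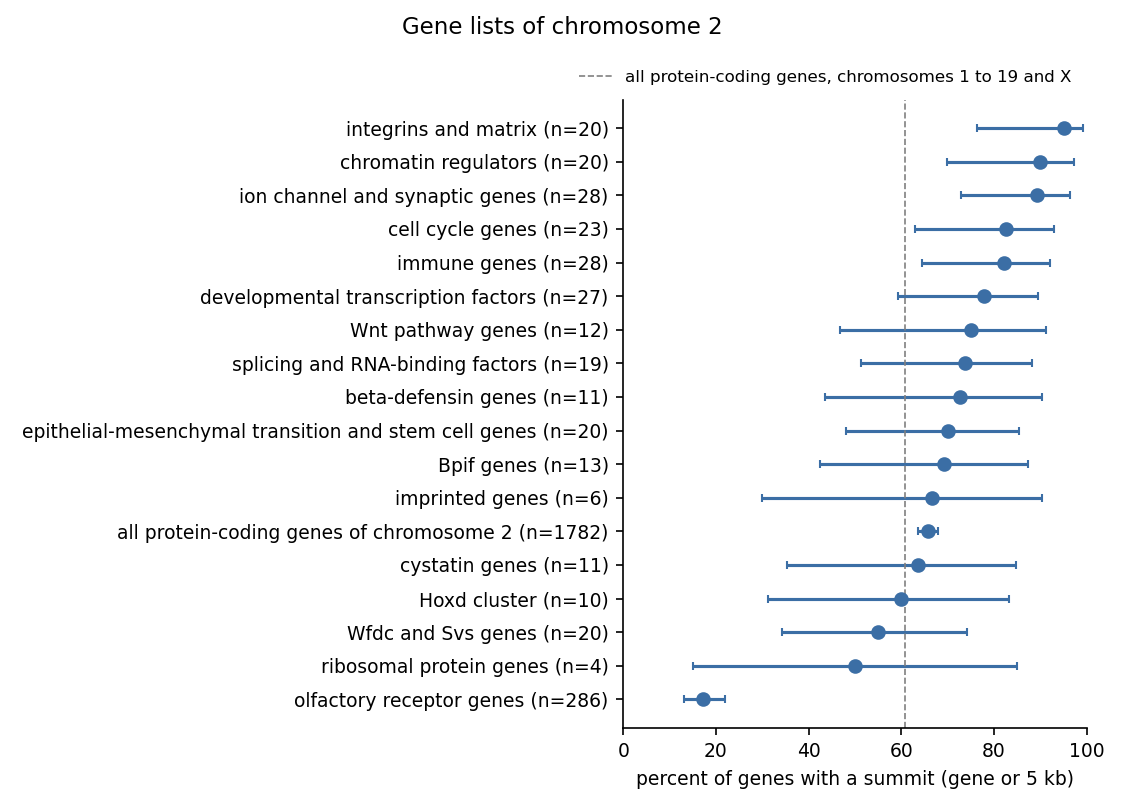
Percent of the genes of each list on chromosome 2 that carry a summit, in the gene or up to 5 kb from it (horizontal axis, points; bars are Wilson 95% intervals, counting error only), with the number of genes beside each name. The dashed line marks 60.8%, the share of all protein-coding genes of chromosomes 1 to 19 and X; olfactory receptor genes lie far below it at 17.1%.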

How the data were processed

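ChIRP and input DNA of 4T1-TGL cells were sequenced as single reads of 76 nt, per the labels' protocols. Per the file headers, the authors called peaks with MACS 1.4.4 (p cutoff 1e-05, fragment length 53 bp, at most 1 tag per position) on 1 merged treatment against input; the build is mm10 (GRCm38), per the submitters' processing notes, and the sources used here name no aligner. The deposited values are tag counts, fold enrichment (a ratio), a score (10 times the negative log10 of the p-value), summit height (a signal, unscaled) and a false discovery rate in percent, which is 0 for every peak. Length and summit offset are in bp. The 3 lists agreed in position, score and summit for all 77823 peaks.

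Implied input used an effective genome of 2.7 gigabases. Summits were counted in windows of 1 Mb and by RefSeq gene (GRCm38.p6, 3704 genes on chromosome 2, no exons or strand). No genome was at hand, so the planned reading of peak sequences was replaced by RefSeq promoter windows; GGGCGG and TATAAA were added to the planned motifs after seeing the data. Of the gene list symbols, 3 were not found on chromosome 2. Python 3.11.15, pandas 2.3.3 and scipy 1.17.1 were used, and counting functions were checked on simulated data. The text names the 15 genes with the highest-fold peak near an end, the 10 with the most summits, up to 4 per list by fold, the 10 densest and sparsest windows and the 10 peaks with most tags; the peaks of highest fold were added later. Members, lists and rule were chosen with earlier results of these data known, and the chromosome was chosen by its peak count. Peaks are not replicates, so intervals cover counting error only. Some items that the rule selects are not reported here.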

Additional observations from a re-analysis of the deposited data

How the results depend on the processing

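Chromosome 2 ranked 3rd or 4th of the autosomes in density under the first 3 settings here. With a score of at least 100 it held 17.9 summits per Mb (14.1 elsewhere, ratio 1.27), a median fold of 189, a median of 9 tags, 8.29% of peaks with at least 30 tags and 48.7% of protein-coding genes with a summit. Without peaks of 3 tags these were 24.7 per Mb (ratio 1.27), 158, 7, 5.98% and 55.6%, with a median input of 1.62 and 38.8% of summits in the densest 20% of windows. Without peaks over 500 bp, 3.23% had at least 30 tags, and the other autosomes had 2.88%, the reverse of the order with all peaks. With peaks of implied input under 1.5 alone, a choice that by construction removes whole stretches of high input, chromosome 2 held 15.2 summits per Mb (18.8 elsewhere, ratio 0.805, 17th of the autosomes) and 5.98% of autosomal summits. The distal excess of 1.93 became 0.294. The other values were then a median fold of 142, an input of 1.34, 3.24% with at least 30 tags, 7.52% near gene ends, 41.9% outside genes and 34.3% of genes with a summit. With windows of 0.5 Mb the densest 20% held 38.1%. Genes with a summit were 52.0% by the body alone and 75.3% with 10 kb. With gene ends within 500 bp, 4.50% lay near ends and 38.4% outside; within 2 kb, 14.9% and 34.5%. Without the densest window, or without the window at 98 to 99 Mb (chosen after seeing the data), density, peak values, position classes and genes with a summit stayed within their counting intervals, or within 1.5 times for density. No paired analysis was possible because each group has 1 library and the list holds no column of a single library. Depth limits each peak's value, since 37.4% of the peaks rest on 3 tags.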

Other observations

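The shares of 4 other tandem families stand beside 65.8% of all protein-coding genes of chromosome 2, 39.2% of those up to 10 kb long and 17.1% of olfactory receptor genes. The 39.2% includes most of the olfactory receptor genes, which lower it. It is therefore no like background for these families, and the share of the other short genes is not given here. Median gene length was 3.295 kb for beta-defensins, 5.03 kb for cystatins, 4.41 kb for the Wfdc and Svs genes and 13.4 kb for the Bpif genes, against 0.945 kb for olfactory receptors, and the part of length and of local summit density in the shares was not tested. Of 11 beta-defensin genes, which encode antimicrobial peptides, 8 (72.7%) carried a summit, in the gene or up to 5 kb from it, led by Defb45 with 73 tags and a fold of 493, then Defb23 (142, 5 tags), Defb19 (142, 8 tags) and Defb22 (132). Of 11 cystatin genes, protease inhibitors, 7 (63.6%) had one, led by Cst13 (228), Cst11 (200, 6 tags), Cst3 (194, 33 tags) and Cstdc1 (171). Of 20 Wfdc and Svs genes of epididymal and seminal proteins 11 (55%) had one, led by Wfdc3 (388), Wfdc5 (382), Wfdc2 (185) and Wfdc15b (174.9). Of 13 Bpif genes, lipid-binding proteins of mucosal surfaces, 9 (69.2%) had one, led by Bpifb2 (419), Bpifb1 and Bpifb5, which share a peak (339), and Bpifb4 (299). Many of these peaks, those of Wfdc3, Wfdc5, Cst13 and Cst3 among them, lie outside the gene bodies, and neighbours share summits, so the genes are not independent.

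Of 6 imprinted genes 4 had a summit (66.7%, Wilson interval 30 to 90.3), beside the same 65.8%. Sfmbt2 led with a fold of 246 and 24 tags, followed by Gnas, the stimulatory G protein gene (142, 8 tags), and by H13 and Mcts2, which share a peak of 3 tags (76.7); Nnat and Blcap held none. Of 4 ribosomal protein genes 2 had one (50%, 15 to 85), Rpl7a (163, 7 tags) and Rpl35 (76.5, 3 tags). Genes of these families were counted as above, and no list was tested.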
